A study of Mus musculus with 13 samples.

Results

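Transcripts of 6 mast cell genes were followed in RNA from the mouse submandibular gland, a major salivary gland. They were taken by symbol from 48709 genes: the granule proteases Cma1, Tpsb2, Mcpt4 and Cpa3, and the IgE receptor chains Fcer1a and Ms4a2. The genes were chosen with counts of these same libraries in view, so their values are given below as a description, with no p-value. All mice were of strain CH3, spelled as the labels have it, and 1 year old when the gland was taken, 300 days after treatment. In 5 libraries (PreIR-GFP) the gland had been injected with AAV2-GFP, an adeno-associated virus carrying green fluorescent protein, 10 days before it was irradiated. In 5 others (PreIR-NTN) the virus was Cere-120, which carries neurturin, a neurotrophic factor of the GDNF family, given at the same interval before irradiation. The remaining 3 libraries (NonIR) came from glands that were not irradiated, and no source used here says whether they received a vector. Irradiation and vector therefore cannot be told apart in a comparison with NonIR. The labels do not tie the libraries to separate animals, so the spread between libraries may be partly technical. The vector and EGFP sequences held 0 reads in all 13 libraries and did not serve to check the labels.

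Mast cells are long-lived tissue immune cells that store proteases, histamine and heparin in granules and release them when IgE bound to their surface receptor meets its antigen. Chymases, tryptases and carboxypeptidase A are held on the granule's heparin and make up much of the stored protein. Connective tissue mast cells, the kind found in the stroma of glands and skin, are known for the chymases Mcpt4 and Cma1 together with tryptase and Cpa3. Mast cells depend on stem cell factor (Kitl) acting on its receptor Kit.

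Cma1 (ENSMUSG00000022225, chymase) lies on GRCm38 at chr14:55941451-55944675 and Mcpt4 (ENSMUSG00000061068, a chymase) at chr14:56059629-56062313, both on the minus strand. Tpsb2 (ENSMUSG00000033825, a tryptase) lies at chr17:25366305-25369098 on the plus strand. Cpa3 (ENSMUSG00000001865, carboxypeptidase A3) lies at chr3:20215620-20242181 on the minus strand. Fcer1a (ENSMUSG00000005339), the chain that binds IgE, lies at chr1:173221284-173227214, and Ms4a2 (ENSMUSG00000024680), the receptor's beta chain, at chr19:11615523-11623719, both on the minus strand. All 6 are annotated as protein-coding, and the values below are reads per gene.

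Promoter sequences matched 5 of the 6 genes, Tpsb2 being the one without an entry, and are shown because these genes are a standard set of mast cell transcripts in which GATA factors are known to act. The 250 bases before the start are given from RefSeq on GRCm38.p6, all from the minus strand, with GATAA (or TTATC, its reverse complement) in capitals. The 3 expressed proteases with an entry and the receptor chain with the most copies are shown.
Cma1, chr14:55944676-55944925: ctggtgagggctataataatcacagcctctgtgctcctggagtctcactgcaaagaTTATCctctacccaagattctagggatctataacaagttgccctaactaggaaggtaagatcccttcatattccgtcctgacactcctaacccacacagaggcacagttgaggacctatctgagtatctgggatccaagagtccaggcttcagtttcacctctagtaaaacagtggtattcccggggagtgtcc
Mcpt4, chr14:56062311-56062560: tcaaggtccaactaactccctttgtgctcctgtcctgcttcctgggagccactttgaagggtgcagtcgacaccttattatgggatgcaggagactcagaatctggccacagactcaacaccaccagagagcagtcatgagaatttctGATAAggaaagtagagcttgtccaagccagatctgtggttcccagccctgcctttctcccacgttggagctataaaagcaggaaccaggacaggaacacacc
Cpa3, chr3:20242182-20242431: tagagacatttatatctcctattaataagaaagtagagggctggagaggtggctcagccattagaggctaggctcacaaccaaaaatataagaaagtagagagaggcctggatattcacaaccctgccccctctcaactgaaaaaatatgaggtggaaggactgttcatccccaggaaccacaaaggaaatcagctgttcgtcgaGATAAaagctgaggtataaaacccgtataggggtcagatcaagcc
Ms4a2, chr19:11623720-11623969: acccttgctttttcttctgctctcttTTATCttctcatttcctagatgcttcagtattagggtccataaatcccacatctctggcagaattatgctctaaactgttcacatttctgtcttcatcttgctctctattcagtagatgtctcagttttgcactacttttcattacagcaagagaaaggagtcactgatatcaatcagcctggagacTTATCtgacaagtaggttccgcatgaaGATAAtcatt
GATAA, searched on both strands, was present in 5 of the 5 matched promoters and in 22.6% of 32851 promoter windows of the same length. Ms4a2 held 3 copies and each of the other four held 1. The copy nearest to a start began 10 bases before it in Ms4a2, 45 in Cpa3, 92 in Fcer1a, 102 in Mcpt4 and 194 in Cma1. TATAAA, also searched on both strands, was found in Mcpt4, Cpa3 and Fcer1a and in 12.4% of all windows. It began 32 bases before the start of Mcpt4 and 31 before that of Cpa3. CANNTG, the E-box, was found in Cma1, Cpa3 and Fcer1a and in 66.2% of all windows. None of the 3 motifs overlapped another in these 5 windows, and a match of letters is not a site.

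The 13 libraries held 9724301 to 16771003 reads in genes. Levels are given as CPM, counts scaled to a common library size with TMM (edgeR's trimmed mean scaling). A count of 0 allows up to 3 reads by a one-sided limit, which is 0.176 to 0.253 CPM depending on the library. The two-sided 95% intervals printed and plotted here are wider and reach 0.216 to 0.311 CPM at a count of 0. These floors and all intervals below cover counting error only. One library, PreIR-GFP 2, carried skeletal muscle transcripts, with a summed 152 CPM of Acta1, Myh4 and Ckm against at most 3.11 CPM in the other 12. PreIR-NTN 5 and NonIR 2 stood highest of their groups in the mast cell genes, and the values that they move most are also given without them.

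All 6 genes were scarce. Together they held 377 reads, almost all of them from the 4 proteases (375 reads). Cma1 accounted for 51.7% of the protease reads (exact binomial 95% interval 46.6 to 56.9%), Tpsb2 for 25.1%, Mcpt4 for 14.1% and Cpa3 for 9.07%. Per kilobase of exon, mean levels over the 13 libraries ran from 0.978 CPM per kb for Cma1 through 0.332 for Tpsb2, 0.276 for Mcpt4 and 0.125 for Cpa3 to 0.00509 for Fcer1a and 0.00231 for Ms4a2. By mean CPM, 55.0% of the 28532 genes with any read lay below Cma1, and 40.6% below Cpa3. Cma1 and Tpsb2 alone passed the filter on low counts. The authors' normalised table held the 4 proteases and not the receptor chains; its entries had at least 6 reads in at least 1 library, while entries left out had at most 5.

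**Figure D1:**
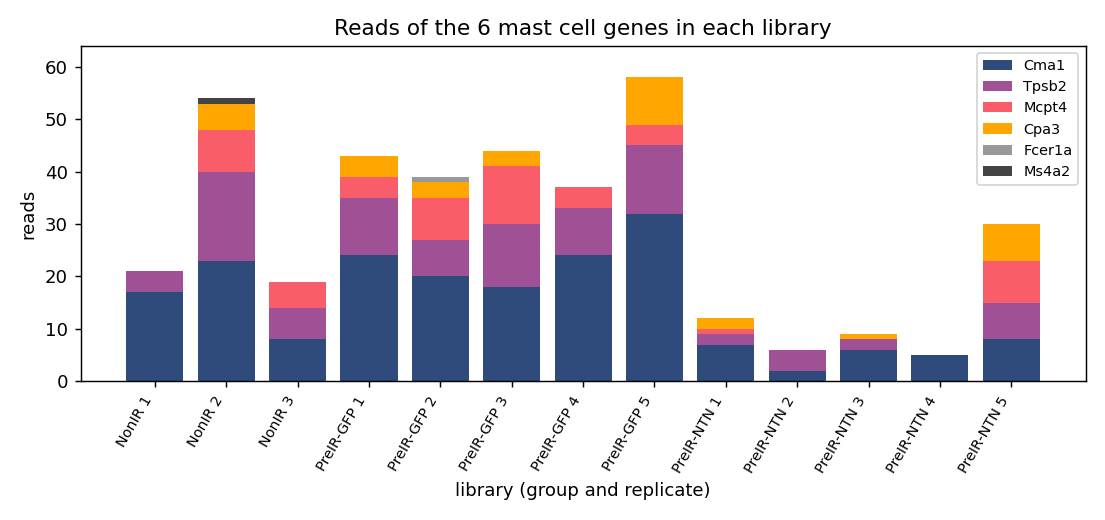
Stacked bars give the number of reads (vertical axis) of each of the 6 genes in each of the 13 libraries (horizontal axis, group and replicate), with 1 colour per gene. The 5 PreIR-GFP libraries hold 37 to 58 reads, PreIR-NTN 1 to 4 hold 5 to 12 and PreIR-NTN 5 holds 30.

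Cma1, the chymase that gave the most reads, was present in every library. It had 17, 23 and 8 reads in NonIR 1 to 3, then 24, 20, 18, 24 and 32 in PreIR-GFP 1 to 5, and 7, 2, 6, 5 and 8 in PreIR-NTN 1 to 5. All 5 PreIR-NTN libraries lay below all 5 PreIR-GFP libraries and below all 3 NonIR libraries in CPM. PreIR-NTN 5 and NonIR 3 had 8 reads each and were set apart by scaling alone (0.635 and 0.654 CPM). The means were 1.25 ± 0.648 CPM in NonIR (SD, n = 3), 1.60 ± 0.238 in PreIR-GFP (SD, n = 5) and 0.421 ± 0.195 in PreIR-NTN (SD, n = 5). Between PreIR-NTN and PreIR-GFP the log2 fold change fitted by edgeR was −1.94 (SE 0.37), and the pooled read rate was 4.00 times higher in PreIR-GFP (95% counting interval 2.63 to 6.28). Without PreIR-NTN 5 the fitted value was −2.14. Against NonIR the fitted log2 fold change was 0.36 (SE 0.38) for PreIR-GFP. Without NonIR 2, the highest NonIR library, it was 0.79. The pooled PreIR-GFP rate was 1.30 times the NonIR rate with all 3 NonIR libraries (0.919 to 1.85), where the groups overlapped. Without NonIR 2 it was 1.73 times that rate (1.11 to 2.78). For PreIR-NTN against NonIR the fitted log2 fold change was −1.59 (SE 0.43), or −1.15 without NonIR 2.

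Tpsb2, a tryptase, had 4, 17 and 6 reads in the NonIR libraries, 11, 7, 12, 9 and 13 in PreIR-GFP, and 2, 4, 2, 0 and 7 in PreIR-NTN. NonIR 2 was the highest of all 13, and PreIR-NTN 5 reached into the PreIR-GFP range while the other four PreIR-NTN libraries stayed below it. Means were 0.733 ± 0.617 CPM (SD, n = 3) in NonIR, 0.716 ± 0.184 (SD, n = 5) in PreIR-GFP and 0.219 ± 0.206 (SD, n = 5) in PreIR-NTN. The fitted log2 fold change of PreIR-NTN against PreIR-GFP was −1.68 (SE 0.59), or −2.28 without PreIR-NTN 5. That of PreIR-GFP against NonIR was −0.01 (SE 0.59) and became 0.90 without NonIR 2 and −0.42 without NonIR 1. That of PreIR-NTN against NonIR was −1.69 (SE 0.67), or −0.77 without NonIR 2. A second tryptase gene, Tpsab1, lies on the same chromosome, and no source used here says how reads that fit both were counted. The transcripts of the pair were 79.8% identical over 812 aligned bases with no shared run longer than 39 bases.

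Mcpt4, the chymase typical of connective tissue mast cells, had 0, 8 and 5 reads in NonIR, 4, 8, 11, 4 and 4 in PreIR-GFP, and 1, 0, 0, 0 and 8 in PreIR-NTN. Every PreIR-GFP library held reads, whereas 3 of the 5 PreIR-NTN libraries held none and 8 of that group's 9 reads came from PreIR-NTN 5. The mean was 0.361 ± 0.340 CPM in NonIR (SD, n = 3), 0.437 ± 0.263 in PreIR-GFP (SD, n = 5) and 0.141 ± 0.278 in PreIR-NTN (SD, n = 5), so the spread of PreIR-NTN exceeded its mean. The pooled rate was 3.27 times higher in PreIR-GFP than in PreIR-NTN (95% counting interval 1.52 to 7.81). Without PreIR-NTN 5 the 1 read left put that ratio at 24.1, with an interval of 4.02 to 982. The PreIR-GFP rate was 1.26 times the NonIR rate (0.639 to 2.62) and 2.27 times without NonIR 2 (0.875 to 7.47), while the log2 ratio of means turned to −0.31 without NonIR 1. The NonIR rate was 2.60 times the PreIR-NTN rate (1.03 to 6.89) and 1.44 times without NonIR 2 (0.380 to 4.79). Cma1 and Mcpt4 transcripts were 73.1% identical over 651 aligned bases, with no shared run longer than 27 bases.

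Cpa3, a carboxypeptidase stored with the chymases, was the scarcest protease, with 0, 5 and 0 reads in NonIR, 4, 3, 3, 0 and 9 in PreIR-GFP, and 2, 0, 1, 0 and 7 in PreIR-NTN. Its groups overlapped throughout. Means were 0.141 ± 0.244 CPM in NonIR (SD, n = 3), 0.252 ± 0.193 in PreIR-GFP (SD, n = 5) and 0.156 ± 0.231 in PreIR-NTN (SD, n = 5). The PreIR-GFP rate was 1.80 times the PreIR-NTN rate with an interval of 0.798 to 4.34 that includes no difference. Without PreIR-NTN 5 the ratio was 4.93 (1.45 to 26.0), on 3 reads against 19. Without PreIR-GFP 5, which held 9 of the 19, the log2 ratio of means was −0.18 in place of −0.69. All 5 NonIR reads came from NonIR 2, so the PreIR-GFP to NonIR ratio of 2.00 (0.724 to 6.87) rested on that library. So did the PreIR-NTN to NonIR ratio, which was 1.11 (0.346 to 4.14), or 0.407 without PreIR-NTN 5 (0.0632 to 2.09).

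**Figure D2:**
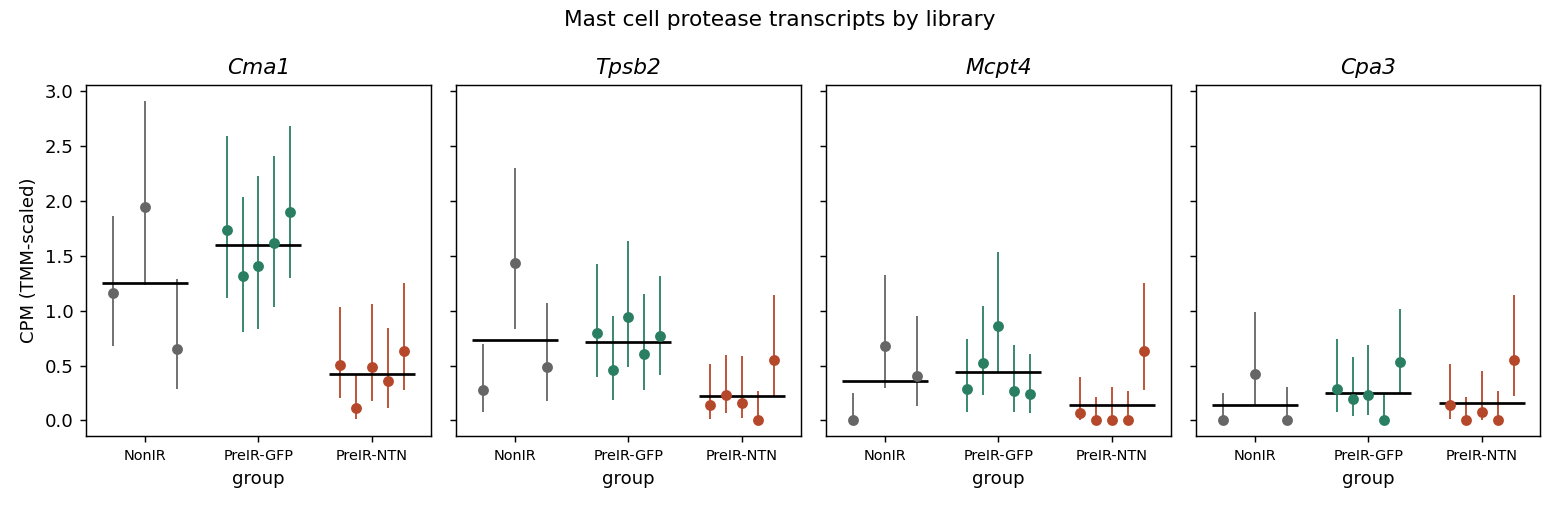
Each point is 1 library's level in TMM-scaled CPM (vertical axis) by group (horizontal axis), replicates in order from left to right; vertical bars are exact Poisson 95% intervals and horizontal lines group means. The Cma1 points of PreIR-NTN lie below those of PreIR-GFP, and PreIR-NTN 5 is the highest PreIR-NTN point in all 4 panels.

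The high affinity IgE receptor was all but unread. Fcer1a had 1 read, in PreIR-GFP 2, and Ms4a2 had 1 read, in NonIR 2. A single read over all 13 libraries allows up to 0.0307 CPM at the upper 95% Poisson limit. The gene of the gamma chain, Fcer1g, which macrophages and other myeloid cells also use, had 1820 reads. Its mean was 8.62 ± 3.27 CPM in NonIR (SD, n = 3), 12.4 ± 4.93 in PreIR-GFP (SD, n = 5) and 8.70 ± 4.06 in PreIR-NTN (SD, n = 5). The mast cell name of the set thus rests on the 4 proteases, and a difference between groups in either receptor chain was not detectable at this depth.

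Summed over the 6 genes, the libraries held 1.44, 4.56 and 1.55 CPM in NonIR, 3.12, 2.57, 3.44, 2.495 and 3.45 in PreIR-GFP, and 0.860, 0.352, 0.733, 0.363 and 2.38 in PreIR-NTN. The lowest PreIR-GFP library stood just above the highest PreIR-NTN library, NonIR 2 lay above every other library, and NonIR 1 and 3 lay below the PreIR-GFP range. Group means were 2.52 ± 1.77 (SD, n = 3), 3.02 ± 0.459 (SD, n = 5) and 0.938 ± 0.837 CPM (SD, n = 5). The log2 ratio of PreIR-NTN to PreIR-GFP was −1.69, with −2.39 without PreIR-NTN 5 and −1.74 without PreIR-GFP 2, the library with muscle transcripts. Against NonIR it was 0.26 for PreIR-GFP, −0.02 without NonIR 1 and 1.01 without NonIR 2, the highest of its group. For PreIR-NTN against NonIR it was −1.42, or −2.12 without PreIR-NTN 5 and −0.67 without NonIR 2. These groups overlapped with all libraries and without NonIR 2, though not without PreIR-NTN 5. In bulk tissue, fewer mast cells and less protease RNA per cell cannot be told apart.

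**Figure D3:**
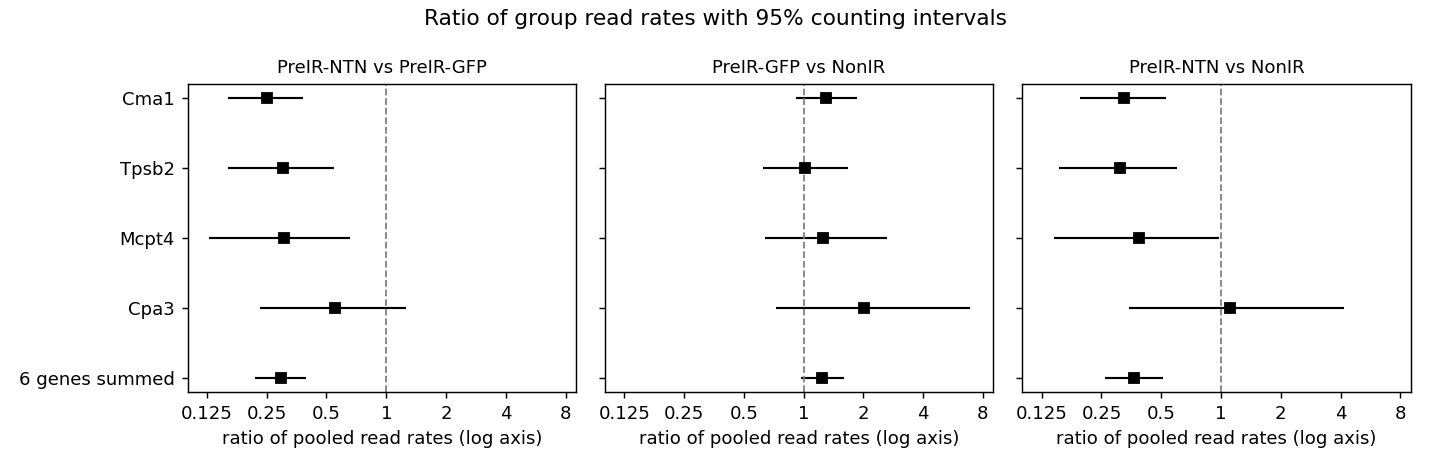
Squares give the ratio of pooled read rates of the first group to the second (horizontal log axis, no units) for each protease and for the 6 genes summed (vertical axis), with exact conditional 95% intervals for counting error and a dashed line at 1. In PreIR-NTN against PreIR-GFP the Cma1, Tpsb2 and Mcpt4 intervals lie below 1, and in PreIR-GFP against NonIR all 5 intervals include 1. The intervals leave out the spread between libraries, so their place beside 1 is not a test between groups. As variance relative to counting alone, that spread was 0.540 to 2.27 in PreIR-GFP over the 4 proteases and the sum. In PreIR-NTN it was 1.44 to 10.4, and in NonIR 4.08 to 15.9.

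Across all genes, edgeR's quasi-likelihood test (Benjamini-Hochberg adjusted p under 0.05) called 0.0204% of 14727 genes in PreIR-NTN against PreIR-GFP, 0.034% in PreIR-GFP against NonIR and 0.0204% in PreIR-NTN against NonIR. Neither Cma1 nor Tpsb2, the 2 members tested, was called in any of the 3 comparisons. At an unadjusted p under 0.05 the members counted were 2, 0 and 2 in that order, where 6.08%, 8.78% and 7.97% of genes passed. DESeq2 called Cma1 in PreIR-NTN against PreIR-GFP and neither gene in the other comparisons, where it called 0.258%, 0.496% and 0.21% of genes in that order. limma-voom called neither gene and 0%, 0% and 0.00679% of all genes, so its count says nothing of the members. Cma1 was lower with no overlap between groups in PreIR-NTN against PreIR-GFP, as were 0.72% of genes tested, and in PreIR-NTN against NonIR, as were 3.3%. These comparisons share libraries, and the genes were chosen on these values, so the counts support nothing further.

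The makeup of the protease reads gave overlapping counting intervals in the 3 groups. Cma1 took 51.6% of 93 reads in NonIR (95% exact interval 41.0 to 62.1%), 53.6% of 220 in PreIR-GFP (46.8 to 60.4%) and 45.2% of 62 in PreIR-NTN (32.5 to 58.3%). Mcpt4 took 14.0% (7.66 to 22.7%), 14.1% (9.78 to 19.4%) and 14.5% (6.86 to 25.8%). Cpa3 took 5.38% (1.77 to 12.1%), 8.64% (5.28 to 13.2%) and 16.1% (8.02 to 27.7%). The PreIR-NTN shares rested on PreIR-NTN 5: among the 32 reads of the other four libraries, Mcpt4 took 3.13% (0.0791 to 16.2%), Cpa3 9.38% (1.98 to 25.0%) and Cma1 62.5% (43.7 to 78.9%). Without NonIR 2, Cma1 took 62.5% of the 40 NonIR reads left (45.8 to 77.3%), Mcpt4 12.5% (4.19 to 26.8%) and Cpa3 0 reads. Over the 13 libraries, Pearson's r of CPM was 0.806 between Cma1 and Tpsb2, 0.762 between Tpsb2 and Mcpt4, and 0.482 to 0.620 for the other 4 pairs. These r describe points that share groups and depth.

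Other mast cell genes did not pass the test. A pair of lists without the 6 genes held 27 more, 15 for granule contents and mediators and 12 for receptors and transcription factors. Of these, 10 passed the filter on low counts, 10 had 1 to 20 reads in all, 3 had more and 4 (Tpsg1, Mcpt2, Mcpt9 and Ctsg) had none in any library. edgeR called 0 of the 10 in each comparison (2, 3 and 1 at an unadjusted p under 0.05), and DESeq2 and limma-voom called 0. Median log2 fold changes in PreIR-NTN against PreIR-GFP were −0.08 over the 6 granule genes tested and −0.08 over the 4 receptor genes, beside −0.01 over all genes.

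The most abundant genes of these lists are not specific to mast cells. Kit, which salivary epithelium also makes, had 82.5 ± 1.17 CPM in NonIR (SD, n = 3), 78.2 ± 20.5 in PreIR-GFP (SD, n = 5) and 83.9 ± 21.6 in PreIR-NTN (SD, n = 5). Slc18a2, the vesicle transporter of histamine and other amines, had 75.3 ± 7.79, 88.4 ± 15.2 and 89.9 ± 18.7 CPM in the same order. Srgn, the proteoglycan core that carries granule heparin, was at 4.43 ± 0.342, 3.84 ± 0.877 and 3.42 ± 0.865 CPM. Mitf, a transcription factor of mast cells and other lineages, had a log2 fold change of −0.26 (SE 0.18, edgeR adjusted p = 0.899) in PreIR-NTN against PreIR-GFP. Hpgds, Alox5 and Alox5ap, enzymes and a partner protein of prostaglandin and leukotriene synthesis, had values of −0.39, 0.17 and −0.39 there, and Ndst2, a heparin sulfating enzyme, 0.01. Against NonIR, Ndst2 had 0.57 in PreIR-GFP (SE 0.22, edgeR adjusted p = 0.480) and 0.58 in PreIR-NTN (SE 0.22, edgeR adjusted p = 0.539).

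Gata2, a transcription factor required for mast cell development, was lowest in PreIR-GFP, where the protease sum was highest. Its mean was 0.742 ± 0.234 CPM in NonIR (SD, n = 3), 0.285 ± 0.117 in PreIR-GFP (SD, n = 5) and 0.569 ± 0.272 in PreIR-NTN (SD, n = 5). The log2 fold change was 0.96 (SE 0.45, edgeR adjusted p = 0.816) in PreIR-NTN against PreIR-GFP and −1.33 (SE 0.49, edgeR adjusted p = 0.462) in PreIR-GFP against NonIR. Csf2rb, the shared receptor chain for interleukin-3, had −0.88 (SE 0.36, edgeR adjusted p = 0.755) and 1.02 (SE 0.44, edgeR adjusted p = 0.523) in the same comparisons, with 101 of its 228 PreIR-GFP reads in PreIR-GFP 5.

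Of the 13 genes of these lists that had reads but missed the filter, 7 had their highest mean CPM in PreIR-GFP, 4 in PreIR-NTN and 2 in NonIR. The mean was lower in PreIR-NTN than in PreIR-GFP for 8 of them, among these Rgs13, Mrgprb1 and Adora3, and not lower for 5, namely Mcpt1, Cma2, Mrgprb2, Cd200r3 and Tal1. These genes had 1 to 29 reads in all, and Ltc4s, one of the 8, was nearly level at 0.177 CPM in PreIR-NTN against 0.178 in PreIR-GFP. Tpsab1 and Hdc are given by library as a tryptase and the histamine enzyme, and were chosen after their values were seen. Tpsab1, the other tryptase, had 0 reads in the 3 NonIR libraries, 1, 1, 3, 5 and 2 in PreIR-GFP, and 0, 0, 0, 0 and 3 in PreIR-NTN. Its 3 PreIR-NTN reads came from PreIR-NTN 5, the library with the most protease reads of that group. NonIR 2, the highest library in the sum of the 6 genes, held 0 Tpsab1 reads. Mrgprb1 had its 3 PreIR-NTN reads in PreIR-NTN 3. Hdc, which makes histamine, had 0, 3 and 0 reads in NonIR, 0, 3, 0, 6 and 5 in PreIR-GFP, and 1, 0, 0, 0 and 1 in PreIR-NTN. Fitted without the filter, PreIR-NTN against PreIR-GFP gave −1.72 for Tpsab1 and −2.39 for Hdc (edgeR adjusted p = 0.838 for both).

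Genes downstream of the IgE receptor, which other immune cells share, were not called by edgeR either. In PreIR-NTN against PreIR-GFP, 14 of the 16 tested had a negative log2 fold change, with a median of −0.36, and edgeR called 0 (4 at an unadjusted p under 0.05). Syk, the kinase recruited by the gamma chain, had −0.92 (SE 0.38, edgeR adjusted p = 0.755), Btk −0.53 and the adaptor Lcp2 −0.45 (edgeR adjusted p = 0.806 for both), and the phospholipase Plcg2 −0.27 (edgeR adjusted p = 0.748). In PreIR-GFP against NonIR 14 of the 16 were positive, with a median of 0.19 and 0 called (3 unadjusted). Prkcb, a protein kinase C, had 1.84 (SE 0.48, edgeR adjusted p = 0.233) and was the 1 gene of this list that DESeq2 called in any comparison. limma-voom called 0. Of growth factors and attractants, 8 of 12 were tested and 0 called in each comparison (1 unadjusted in each). Kitl, the ligand of Kit, had 99.2 ± 24.9 CPM in NonIR (SD, n = 3), 60.9 ± 16.1 in PreIR-GFP (SD, n = 5) and 69.5 ± 12.8 in PreIR-NTN (SD, n = 5), a log2 fold change of −0.70 (SE 0.22, edgeR adjusted p = 0.351) in PreIR-GFP against NonIR. DESeq2 and limma-voom called 0 of these growth factors.

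Genes of other granulocytes were mostly scarce. The basophil proteases Mcpt8 and Prss34 had 0 reads in all 13 libraries, and 1 of 7 eosinophil and 0 of 8 neutrophil genes passed the filter. That gene was Prg2, which encodes eosinophil major basic protein, with 124 reads, more than Tpsb2, Mcpt4 or Cpa3 had, while the other 14 genes had 0 to 33 each. Prg2 had 2, 10 and 4 reads in NonIR, 4, 17, 18, 6 and 26 in PreIR-GFP, and 3, 0, 8, 15 and 11 in PreIR-NTN. Its groups overlapped, and its log2 fold change was −0.80 (SE 0.66, edgeR adjusted p = 0.934) in PreIR-NTN against PreIR-GFP. The fibroblast and macrophage lists had lower summed levels in PreIR-NTN than in PreIR-GFP, as the 6 genes did. All 10 fibroblast genes had a negative log2 fold change in PreIR-NTN against PreIR-GFP, with a median of −0.87, and edgeR called 1, Dpt, an extracellular matrix protein gene that fell by 1.33 (SE 0.18, edgeR adjusted p = 0.0174). With 1 library left out Dpt passed in 7 of 13 fits (edgeR adjusted p 0.00429 to 0.105), and was lost without PreIR-GFP 1 or 5 or without PreIR-NTN 1, 2, 4 or 5. DESeq2 called Dcn, Mmp2 and Pdgfra besides, and limma-voom called none. Their summed level was 260 to 415 CPM in PreIR-GFP, 160 to 210 in PreIR-NTN and 248 to 296 in NonIR. Of 10 macrophage genes 9 were negative, with a median of −0.44 and 0 called by edgeR (6 unadjusted; DESeq2 called Adgre1 and Lyz2, limma-voom none), and sums of 137 to 217, 87.0 to 131 and 123 to 136 CPM in the same order. B and plasma cell genes were negative in 5 of 6, with a median of −0.79 and 0 called by edgeR (3 unadjusted), DESeq2 or limma-voom. Their sums ran from 72.1 to 1220 CPM in PreIR-GFP, 22.5 to 226 in PreIR-NTN and 70.7 to 458 in NonIR. They were highest within their groups in NonIR 2 and PreIR-NTN 5, as the proteases were. In PreIR-GFP they were highest in PreIR-GFP 1, whereas the sum of the 6 genes was highest in PreIR-GFP 5. T and NK cell genes were negative in 5 of 5 tested (median −0.38) and endothelial genes in 3 of 5 (median −0.20). Medians were −0.03 for acinar, −0.15 for Schwann cell, 0.06 for adipocyte and 0.24 for granular convoluted tubule genes. The 1 skeletal muscle gene tested had −2.80, PreIR-GFP 2 being the library with muscle transcripts. edgeR called 0 genes of these lists. The part of any of these cells in the protease values was not tested.

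**Figure D4:**
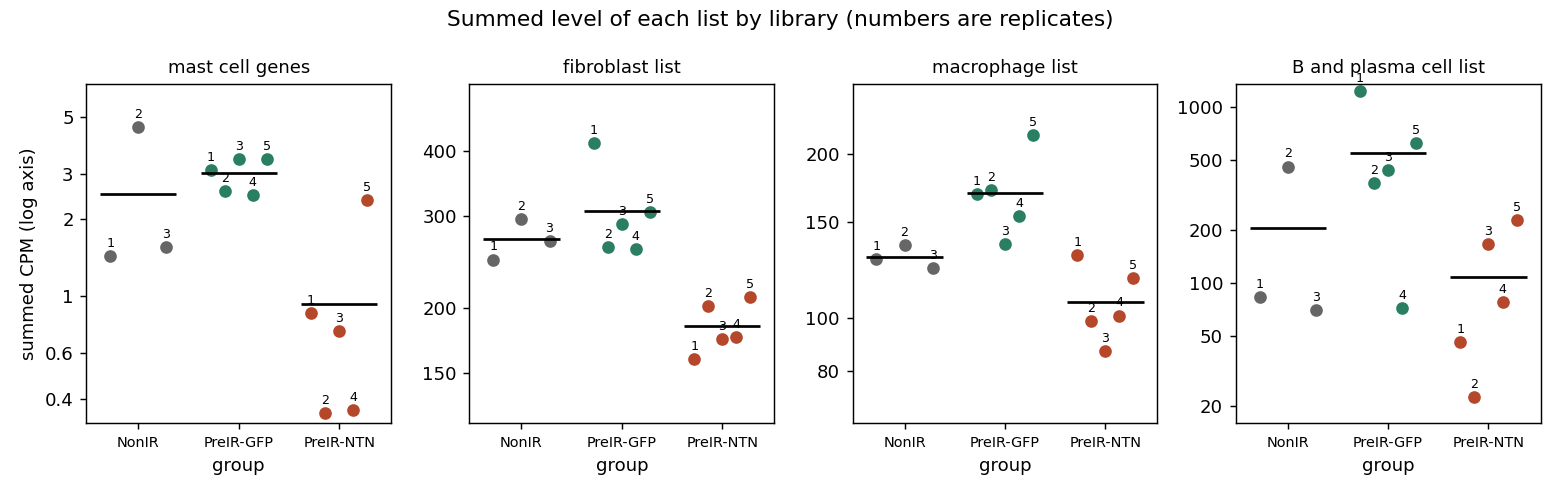
Points are libraries, numbered by replicate, with the summed CPM of a list on a vertical log axis that differs between panels and the group on the horizontal axis; horizontal lines are group means. NonIR 2 and PreIR-NTN 5 are the highest of their groups for the mast cell genes, the fibroblast list and the B and plasma cell list. PreIR-GFP and PreIR-NTN do not overlap in the first 3 panels, narrowly so for the mast cell genes (2.495 against 2.38 CPM). Of single genes tested, 0.72% were lower in PreIR-NTN with no overlap, and no such share was taken for sums of lists. In PreIR-GFP the highest is replicate 5 for the mast cell genes and replicate 1 for the fibroblast and the B and plasma cell lists.

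The genes whose log2 CPM followed the summed level of the 6 most closely over the 13 libraries were Sult1a1, a sulfotransferase (Pearson's r 0.937), Igkv12-46 (0.891), Igkv12-44 (0.883), Ighv3-6 (0.879), Cd302 (0.875), Igkv6-23 (0.858), Ccl6 (0.850), Mfap5 (0.849), Cd209f (0.845) and Mgl2 (0.837). Of these, 4 are immunoglobulin variable segments, read in plasma cells, and near-identical segments may share reads. Ccl6, Cd209f and Mgl2 are known from macrophages and Mfap5 from fibroblasts. Sult1a1 had 5.52 ± 0.337 CPM in NonIR (SD, n = 3), 5.66 ± 0.273 in PreIR-GFP (SD, n = 5) and 4.44 ± 0.442 in PreIR-NTN (SD, n = 5). The 10 were ranked from all genes that passed the filter, and the libraries share the group structure, so the r values are a description.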

How the data were processed

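RNA from submandibular glands was sequenced in 13 libraries (SMART-Seq v4 cDNA, Nextera XT, an Illumina NextSeq, per the labels' protocols). Per the submitters' processing notes, the tools were STAR 2.5.2a, DESeq2, edgeR and limma and the build GRCm38.p3 (mm10); no source used here names the counting tool or its strand setting. Where the series' design text names another instrument and other aligners, the labels were preferred. The authors deposited raw counts per gene and a table of normalised signal values, each equal on testing to the counts times 1 constant per library (0.0585 to 0.0849 per read). Counts were used for every result except 1 alternative. The 24 non-gene entries, at most 5.85e-05% of a library, were left out.

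filterByExpr by group kept 14727 genes. TMM scaling and edgeR 4.0.16's quasi-likelihood F test (robust, R 4.3.3) used all 13 libraries and 1 mean for each group; tests were two-sided, p-values were adjusted over the whole table by Benjamini-Hochberg, and 0.05 was the threshold. The biological coefficient of variation was 0.265. Depth was 9724301 to 16771003 reads per library. The fit was tested on simulated data. DESeq2 1.42.0 and limma 3.58.1 were alternatives, with other scalings and filters and each library left out. Read rates were compared by exact Poisson methods at 95% confidence. Positions and exon lengths came from GENCODE for GRCm38. The members and lists were chosen with earlier results of these data known. Named were the members, list genes past the filter, the up to 4 genes with the lowest p of each other list and the 10 genes most like the members' sum; Tpsab1, Hdc and other list genes below the filter were named after their values were seen.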

Additional observations from a re-analysis of the deposited data

Results flagged for a closer look

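Within groups of 5 libraries, 11 sets of values of the 6 genes and their sum were searched for a library standing apart. The mark was a gap to the nearest neighbour above 0.71 of the group's range, Dixon's 95% limit. Normally distributed values pass that limit in about 1 group in 20. Counts this low, some of them 0, are not such values, so the number flagged cannot be set against that rate. A total of 4 sets passed the limit. PreIR-NTN 5 stood above the other four PreIR-NTN libraries in Mcpt4 (0.635 CPM, 0.887 of the range), in Cpa3 (0.555 CPM, 0.742 of the range) and in the sum of the 6 genes (2.38 CPM, 0.749 of the range), sets that are not independent of each other. Fcer1a stood out in PreIR-GFP 2 (0.0660 CPM, the whole range) on 1 read, and a set holding only 1 read always gives the whole range.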

How the results depend on the processing

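The log2 ratio of the 6 genes' sum stayed negative in PreIR-NTN against PreIR-GFP under all 17 alternatives run and ran from −2.39 to −1.44 with single libraries left out. Against NonIR it ran from −0.02 to 1.01 for PreIR-GFP and from −2.12 to −0.67 for PreIR-NTN. Cma1's fold change in PreIR-NTN against PreIR-GFP stayed between −2.14 and −1.21 in 22 alternatives and Tpsb2's between −2.28 and −0.79 in 21, both smallest on the deposited table at log2(value + 0.5). Tpsb2 missed the filter with only those groups in the fit. Cpa3 without NonIR 2 had no NonIR reads and gave no ratio to NonIR. None of the other mast cell genes was called in any of 22 alternatives. The counts of all genes called (3, 5 and 3 for PreIR-NTN against PreIR-GFP, PreIR-GFP against NonIR and PreIR-NTN against NonIR) moved as follows, and the cause was not tested. They were 0, 0 and 0 by library totals only (573, 754 and 479 unadjusted) and 38, 73 and 31 by DESeq2. limma-voom gave 0, 0 and 1 (833 and 1143 unadjusted where 0). Without the filter the first 2 were 10 and 20, and with only the 2 groups in the fit 0 and 0 (815 and 1008 unadjusted). With both PreIR-GFP 1 and PreIR-GFP 2 left out, a choice made after seeing the data, they were 1, 1 and 5. Leaving out single libraries gave 0 to 11, 0 to 17 and 0 to 4. With the replicate number as a block they were 0, 0 and 0 (692, 1084 and 878 unadjusted). Deviations of same-numbered libraries correlated at −0.43 to 0.21, 0.06 to 0.28 and −0.28 to −0.15. Libraries of unlike number were not set beside these, so the values cannot decide whether the numbers pair samples. The groups share only a replicate number, and it was not taken as a pairing. Counts of 0 to 32 reads per gene and library limit every value of the 6 genes.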
